A study of Mus musculus with 6 samples.

Results

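The genes of cholesterol and fatty acid synthesis form a programme of lipid-making enzymes under the control of the SREBP transcription factors. The set described here holds 31 genes, chosen by symbol with earlier results of these data known, of the 22442 genes in the deposited table. They comprise 5 genes of SREBP and sterol sensing, 7 of the mevalonate and isoprenoid steps, 11 of the steps from squalene to cholesterol, 1 sterol carrier and 7 of fatty acid synthesis and desaturation.

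The 6 RNA libraries came from mTECs, a line of mouse renal tubular epithelial cells. The cells of all 6 were exposed for 24 h to 20 μg/ml of LPS, the lipopolysaccharide of the bacterial outer membrane. Beforehand, 3 were transfected with a negative control (labelled LPS) and 3 with an siRNA (labelled LPSKD), which the study directed at Stat3. No library without LPS was analysed here, and the transfected RNA is the only difference between the groups that the labels give. The labels describe magnetically sorted cells, whereas the study's methods describe an immortalised line, and the study's list of reagents names an shRNA for mouse Stat3 where the labels say siRNA. Nothing states that the 3 replicates of a group came from separate cultures, so the p-values measure the spread between these libraries, which may be technical.

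No difference in Stat3 itself was detected between the groups. The transcript measured 34.6, 31.4 and 35.2 FPKM under the label LPS and 30.8, 35.2 and 34.3 FPKM under LPSKD (log2 fold change -0.01 ± 0.07 SE, adjusted p = 0.944, limma). FPKM is the number of fragments on a gene divided by gene length and by library size. The study reports that Stat3 knockdown in mTECs was verified by real-time PCR and western blot. Since no fall of Stat3 was detected in these libraries, the groups are named by their labels throughout. The libraries held between 24084827 and 25422171 fragments, recovered from the FPKM values.

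SREBP proteins are made as precursors held in the membrane of the endoplasmic reticulum by Scap, an escort, and by Insig1 or Insig2, which retain Scap there when sterols are plentiful. When sterols fall, Scap carries the precursor to the Golgi apparatus, where it is cut, and the freed fragment enters the nucleus and switches on the genes of lipid synthesis. The product of Srebf2 acts mainly on cholesterol synthesis and the products of Srebf1 mainly on fatty acid synthesis. In the proximal tubule of the kidney, fatty acids are also a main fuel.

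SREBP proteins act at promoters together with the factors NF-Y and Sp1. Windows from 250 bases before to 50 bases after a RefSeq start, on the assembly GRCm38.p6, could be matched for 25 of the 31 members. Those of Fdft1, Fdps, Sqle, Stard4, Scd1 and Scd2 were not analysed here. The NF-Y box, CCAAT on either strand, stood in the windows of 21 of the 25 (84%) and of 14 of the 15 enzymes between acetyl-CoA and cholesterol (93.3%), against 43.8% of the 9237 tested genes with a window and 41.1% of all 27025 genes with one. The Sp1 box, GGGCGG on either strand, stood in 84% of the members and 68.5% of the tested genes. In the 5 fatty acid genes with a window, the NF-Y box stood in 3 (60%) and the Sp1 box in 2 (40%). The sterol element TCACNCCAC was met in 1 member, Hmgcs1, and in 1.39% of the tested genes. The E-box CACGTG was met in 5 members (20%) and 11.6% of the tested genes, and the STAT site TTCNNNGAA in 1 member, Ebp, and 8.33% of the tested genes. Boxes on opposite strands may overlap, as a pair did in Fasn, and 5 members had more than 1 window, any of which could hold the motif. A match of letters describes the window and does not show a bound site.

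The windows of the 6 called members that have one are shown here, since the results turn on these genes. Each line gives the 250 bases before the RefSeq start, 5′ to 3′, on the strand of the gene, and the capitals mark NF-Y boxes and, in Hmgcs1, also the sterol element.
Hmgcs1, chr13:119690101-119690350, plus strand: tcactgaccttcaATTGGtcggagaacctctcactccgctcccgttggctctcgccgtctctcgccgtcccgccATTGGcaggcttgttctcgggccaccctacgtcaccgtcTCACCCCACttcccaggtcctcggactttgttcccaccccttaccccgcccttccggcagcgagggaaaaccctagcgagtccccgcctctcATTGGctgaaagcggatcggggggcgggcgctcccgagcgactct
Pmvk, chr3:89454291-89454540, plus strand: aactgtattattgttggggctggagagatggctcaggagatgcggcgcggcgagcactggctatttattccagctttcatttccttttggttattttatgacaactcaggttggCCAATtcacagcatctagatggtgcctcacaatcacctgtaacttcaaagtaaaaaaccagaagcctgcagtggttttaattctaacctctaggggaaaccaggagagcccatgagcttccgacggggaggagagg
Lss, chr10:76531355-76531604, plus strand: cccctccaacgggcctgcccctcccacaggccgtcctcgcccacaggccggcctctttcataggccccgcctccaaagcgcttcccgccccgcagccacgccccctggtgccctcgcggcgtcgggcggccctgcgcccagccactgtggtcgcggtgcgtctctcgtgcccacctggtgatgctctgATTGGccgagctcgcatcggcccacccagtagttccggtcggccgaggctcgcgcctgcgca
Cyp51, chr5:4104698-4104947, minus strand: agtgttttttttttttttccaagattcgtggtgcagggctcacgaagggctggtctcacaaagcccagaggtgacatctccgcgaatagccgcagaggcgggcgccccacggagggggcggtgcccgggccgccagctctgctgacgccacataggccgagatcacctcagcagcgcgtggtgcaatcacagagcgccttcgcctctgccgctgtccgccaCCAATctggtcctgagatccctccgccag
Insig1, chr5:28071162-28071411, plus strand: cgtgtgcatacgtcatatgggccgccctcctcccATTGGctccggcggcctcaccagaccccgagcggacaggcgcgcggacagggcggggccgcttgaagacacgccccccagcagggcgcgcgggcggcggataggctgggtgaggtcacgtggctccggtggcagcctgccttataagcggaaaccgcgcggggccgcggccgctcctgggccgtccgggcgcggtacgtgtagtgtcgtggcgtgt
Acss2, chr2:155517793-155518042, plus strand: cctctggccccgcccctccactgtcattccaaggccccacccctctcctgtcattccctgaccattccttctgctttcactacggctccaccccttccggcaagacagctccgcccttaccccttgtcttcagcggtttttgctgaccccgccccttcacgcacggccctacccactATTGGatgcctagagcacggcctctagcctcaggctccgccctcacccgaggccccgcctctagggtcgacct

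Hmgcs1 held 3 NF-Y boxes in the stretch shown, with the sterol element between the second and the third, and Pmvk, Lss, Cyp51, Insig1 and Acss2 held 1 each. Pmvk has a further RefSeq start downstream, and its window held none.

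Between the groups, 7 of the 31 members rose in the libraries labelled LPSKD and 0 fell, at an adjusted p under 0.05 over all genes tested. All 31 passed the filter on low values, a mean of at least 0.5 FPKM, which kept 11723 genes. The share of members that rose was 22.6%, whereas 1.57% of all tested genes were called higher and 1.66% lower. Since the list was chosen with earlier results of these data known, such shares describe it and give no blind comparison. The members that rose were Hmgcs1, Pmvk, Lss, Cyp51, Insig1, Stard4 and Acss2, and their rises were small, between 15.3% and 38.3%. At an unadjusted p under 0.05, 19 members were higher and 2 lower, against 8.65% and 8.91% of all tested genes. Bulk RNA cannot tell a change in the level per cell from a change in the share of cells that express a gene.

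The counts of separated groups went the same way. In 20 members (64.5%) every library labelled LPSKD lay above every library labelled LPS, against 10.6% of all tested genes. In 2 members, Srebf1 and Acaca, all 3 lay below, against 13.2% of all tested genes. The median log2 fold change of the members was 0.16 and that of all tested genes -0.01. With 3 libraries against 3, the exact two-sided permutation test over the 20 assignments cannot go below p = 0.1 for any single gene.

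**Figure D1:**
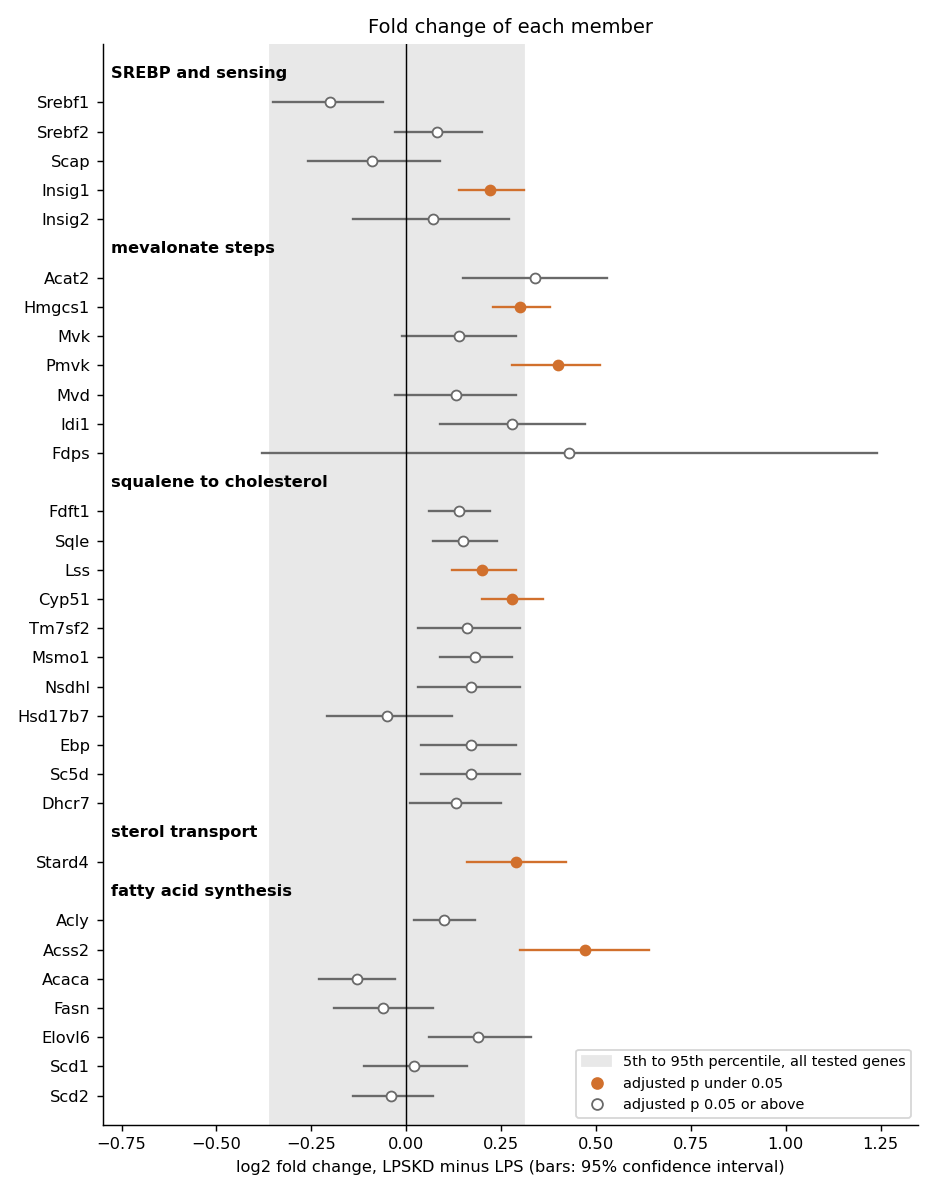
Log2 fold change of each member (x axis, LPSKD minus LPS) with its 95% confidence interval, grouped by role (y axis). Filled points have an adjusted p under 0.05, and the grey band spans the 5th to 95th percentile of all tested genes, from -0.36 to 0.31. The 7 filled points all lie to the right of 0, and the interval of Fdps is by far the widest.

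The levels placed most of the set among the abundant transcripts of these cells. By mean FPKM over the 6 libraries, which is scaled to length, 12 members reached 100 FPKM, 18 lay between 10 and 100, and only Fdps lay lower. Scd2, a stearoyl-CoA desaturase that puts the double bond into saturated fatty acids, was the highest at 1187 FPKM, above 99.5% of the tested genes. Fdps, the farnesyl diphosphate synthase, was the lowest at 0.831 FPKM.

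Of the 5 genes of SREBP and sterol sensing 1 rose, Insig1, and 0 fell (against 1.57% and 1.66% of all tested genes). Insig1 (ENSMUSG00000045294, chromosome 5, 28071363 to 28078662, plus strand, GRCm38) measured 103, 105 and 105 FPKM under the label LPS and 119, 125 and 122 FPKM under LPSKD. The groups did not overlap, and the rise was 16.8% (log2 fold change 0.22 ± 0.04 SE, adjusted p = 0.0138). A processed pseudogene shares 13.9% of the 31-base stretches of its coding sequence. Insig1 is itself a known target of SREBP.

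Its relative Insig2, which serves the same retention but is not under the same control, measured 37.5, 33.2 and 30.9 FPKM and then 35.4, 38.9 and 32.1 FPKM. The groups overlapped (log2 fold change 0.07, 95% interval -0.14 to 0.27, adjusted p = 0.761). Insig1 was the more abundant of the pair in all 6 libraries.

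The 2 SREBP genes had fold changes of opposite sign, and neither passed the test. Srebf1 measured 47.5, 40.4 and 43 FPKM under the label LPS and 37.3, 37.9 and 38.3 FPKM under LPSKD. All 3 LPSKD values lay below the lowest LPS value, by a narrow margin, and the log2 fold change was -0.20 ± 0.06 SE (adjusted p = 0.144). The gene's value does not separate its alternative first exons. Srebf2 measured 154, 135 and 144 FPKM and then 152, 150 and 157 FPKM. These groups overlapped (log2 fold change 0.08, 95% interval -0.03 to 0.20, adjusted p = 0.453).

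Scap, the escort of both precursors, measured 28.7, 24 and 27.6 FPKM and then 24.6, 24.5 and 26.2 FPKM. The LPSKD values lay within the range of the LPS values, and the log2 fold change was -0.09 (95% interval -0.26 to 0.09, adjusted p = 0.609). Srebf2 was thus the more abundant of the 2 SREBP transcripts, and Scap the least abundant of the 5 SREBP and sensing genes by its mean level. Another gene shares 16.8% of the coding stretches of Scap.

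**Figure D2:**
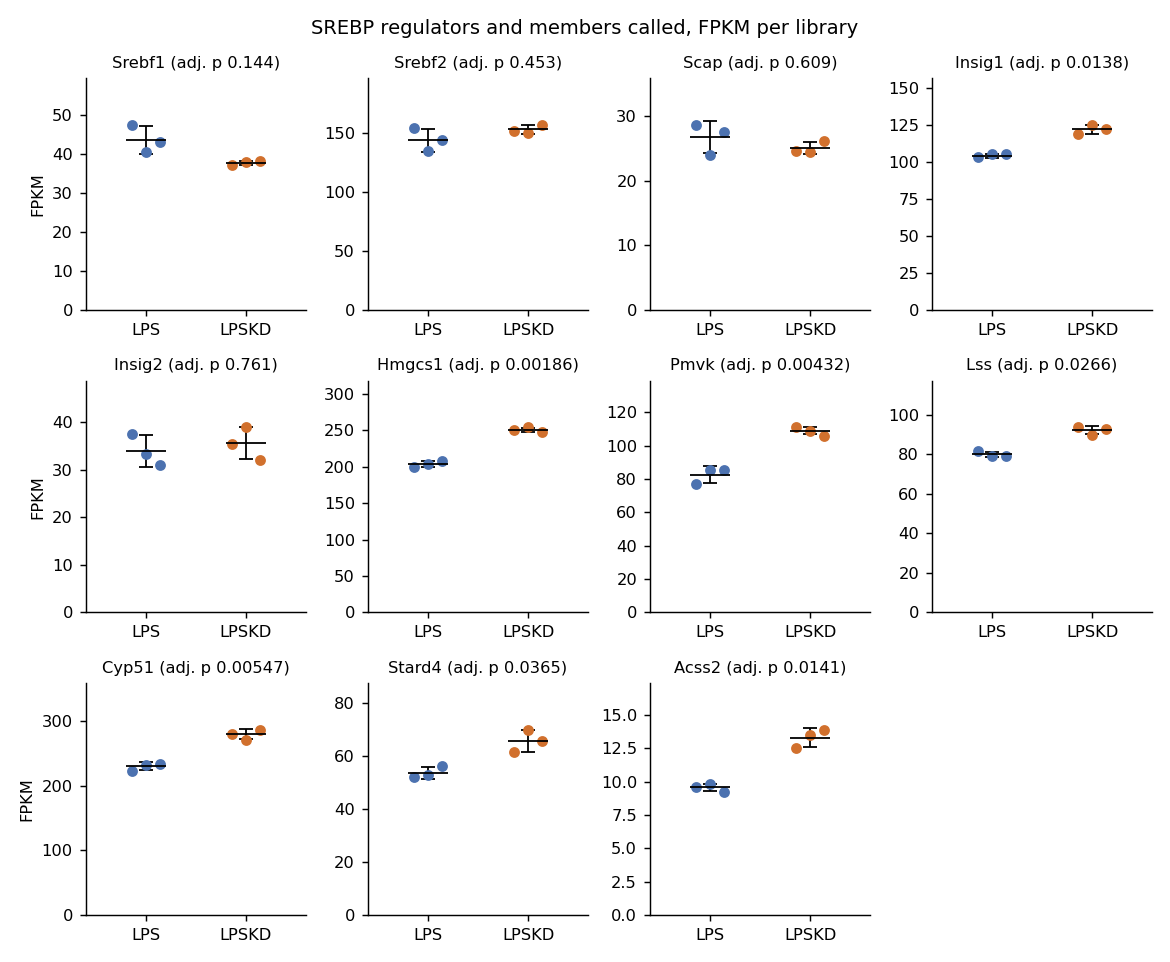
FPKM (y axis, from 0) of the 5 SREBP and sensing genes and of the other 6 called members in the libraries labelled LPS and LPSKD (x axis). Points are libraries, bars the mean and SD of 3. Insig1, Hmgcs1, Pmvk, Lss, Cyp51, Stard4 and Acss2 show separated groups with the LPSKD values on top, while Srebf2, Scap and Insig2 overlap.

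Of the 7 genes of the mevalonate and isoprenoid steps, 2 rose and 0 fell (against 1.57% and 1.66% of all tested genes). LPSKD values lay wholly above the LPS values in 5 (against 10.6% of all tested genes). Their median log2 fold change was 0.30, and all 7 fold changes were positive, from 0.13 to 0.43. Their summed level was between 592 and 628 FPKM in the libraries labelled LPS and between 736 and 769 FPKM in those labelled LPSKD.

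Hmgcs1, which condenses acetoacetyl-CoA with acetyl-CoA at the entry to the pathway, had the smallest adjusted p of the set. The gene (ENSMUSG00000093930, chromosome 13, 119690379 to 119708260, plus strand) measured 199, 203 and 207 FPKM and then 250, 254 and 248 FPKM. The spread within each group was far smaller than the step between them, a rise of 23.3% (log2 fold change 0.30 ± 0.03 SE, adjusted p = 0.00186). An antisense gene shares 32% of the 31-base stretches of its coding sequence, and the counting is not stated to use strand.

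Pmvk, the phosphomevalonate kinase (ENSMUSG00000027952, chromosome 3, 89454541 to 89469013, plus strand), measured 76.9, 85.2 and 85.6 FPKM and then 111, 109 and 106 FPKM. The rise of 31.7% (log2 fold change 0.40 ± 0.05 SE, adjusted p = 0.00432) was the largest in this branch among those called. No stretch of 31 bases of its coding sequence occurs in another gene.

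Acat2, which makes acetoacetyl-CoA, and Idi1, which isomerises isopentenyl diphosphate, had separated groups but missed the threshold. Acat2 ranged from 94.1 to 115 FPKM and then from 128 to 147 FPKM (log2 fold change 0.34, adjusted p = 0.0721). Idi1 ranged from 113 to 144 FPKM and then from 152 to 163 FPKM (log2 fold change 0.28, adjusted p = 0.135). Both share most of their coding stretches with other genes, 76.7% for Acat2, chiefly with Acat3, and 73.8% for Idi1, so fragments could have been assigned to either copy.

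The mevalonate kinase gene Mvk had separated groups by a slim gap, with a highest LPS value of 42.8 FPKM and a lowest LPSKD value of 43.1 FPKM (log2 fold change 0.14, adjusted p = 0.315). Mvd, the decarboxylase that follows Pmvk, overlapped at 42 to 51.2 FPKM against 49.1 to 51.8 FPKM (log2 fold change 0.13, 95% interval -0.03 to 0.29, adjusted p = 0.389).

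Fdps could not be measured with any precision. It rested on 20 to 49 fragments per library, and its values were 0.614, 0.706 and 0.688 FPKM and then 1.5, 0.635 and 0.842 FPKM, with 1 library labelled LPSKD apart from the other 5 (log2 fold change 0.43, 95% interval -0.38 to 1.24, adjusted p = 0.591). Of its coding stretches of 31 bases, 92.6% occur in other genes, so its level is uncertain.

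Of the 11 genes from squalene to cholesterol, 2 rose and 0 fell (against 1.57% and 1.66% of all tested genes). Yet 10 had LPSKD values wholly above the LPS values (90.9%, against 10.6% of all tested genes). Their median log2 fold change was 0.17, with a range from -0.05 to 0.28. Their summed level ran from 1236 to 1281 FPKM and then from 1423 to 1443 FPKM. Taking these steps and the mevalonate steps as 1 path of 18 enzymes, 15 were separated upwards, 0 downwards, and 17 of the fold changes were positive. Among all tested genes, 10.6% were separated upwards, 13.2% downwards, and 47.5% had a positive fold change.

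Cyp51, the demethylase of lanosterol (ENSMUSG00000001467, chromosome 5, 4081145 to 4104746, minus strand), measured 223, 233 and 234 FPKM and then 281, 271 and 287 FPKM. The groups stood well apart, with a rise of 21.4% (log2 fold change 0.28 ± 0.04 SE, adjusted p = 0.00547). Lss, the cyclase that closes the sterol rings (ENSMUSG00000033105, chromosome 10, 76531588 to 76557138, plus strand), measured 81.6, 79.2 and 78.9 FPKM and then 93.7, 89.8 and 92.8 FPKM. The groups were separated by less here, with a rise of 15.3% (log2 fold change 0.20 ± 0.04 SE, adjusted p = 0.0266). An antisense gene shares 6.02% of the coding stretches of Lss.

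The steps before Lss gave close values. Fdft1, the squalene synthase, ranged from 180 to 187 FPKM and then from 196 to 209 FPKM (log2 fold change 0.14, adjusted p = 0.082). Sqle, the squalene epoxidase and a tightly controlled step, ranged from 141 to 146 FPKM and then from 156 to 165 FPKM (log2 fold change 0.15, adjusted p = 0.0681). Neither passed the threshold although no library of 1 group reached the range of the other. A processed pseudogene shares 48.6% of the coding stretches of Fdft1.

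The same held for the steps after Cyp51. Msmo1, the oxidase that removes methyl groups, ranged from 248 to 273 FPKM and then from 296 to 303 FPKM (adjusted p = 0.0604). The dehydrogenase Nsdhl, the reductase Tm7sf2, the isomerase Ebp, the desaturase Sc5d and the terminal reductase Dhcr7 had log2 fold changes between 0.13 and 0.17 and adjusted p-values between 0.166 and 0.236. Hsd17b7, the ketoreductase that works with Nsdhl and Msmo1, was the exception, at 29 to 33.7 FPKM and then 29 to 32.4 FPKM (log2 fold change -0.05, 95% interval -0.21 to 0.12, adjusted p = 0.794). Its level was the lowest of the 11. A pseudogene shares 5.19% of the coding stretches of Sc5d.

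Stard4, a small soluble protein that carries sterols between membranes, was the only transport gene of the set. It measured 51.9, 52.7 and 56.1 FPKM and then 61.3, 69.9 and 65.6 FPKM. The groups did not overlap, with a rise of 22.3% (log2 fold change 0.29 ± 0.06 SE, adjusted p = 0.0365).

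**Figure D3:**
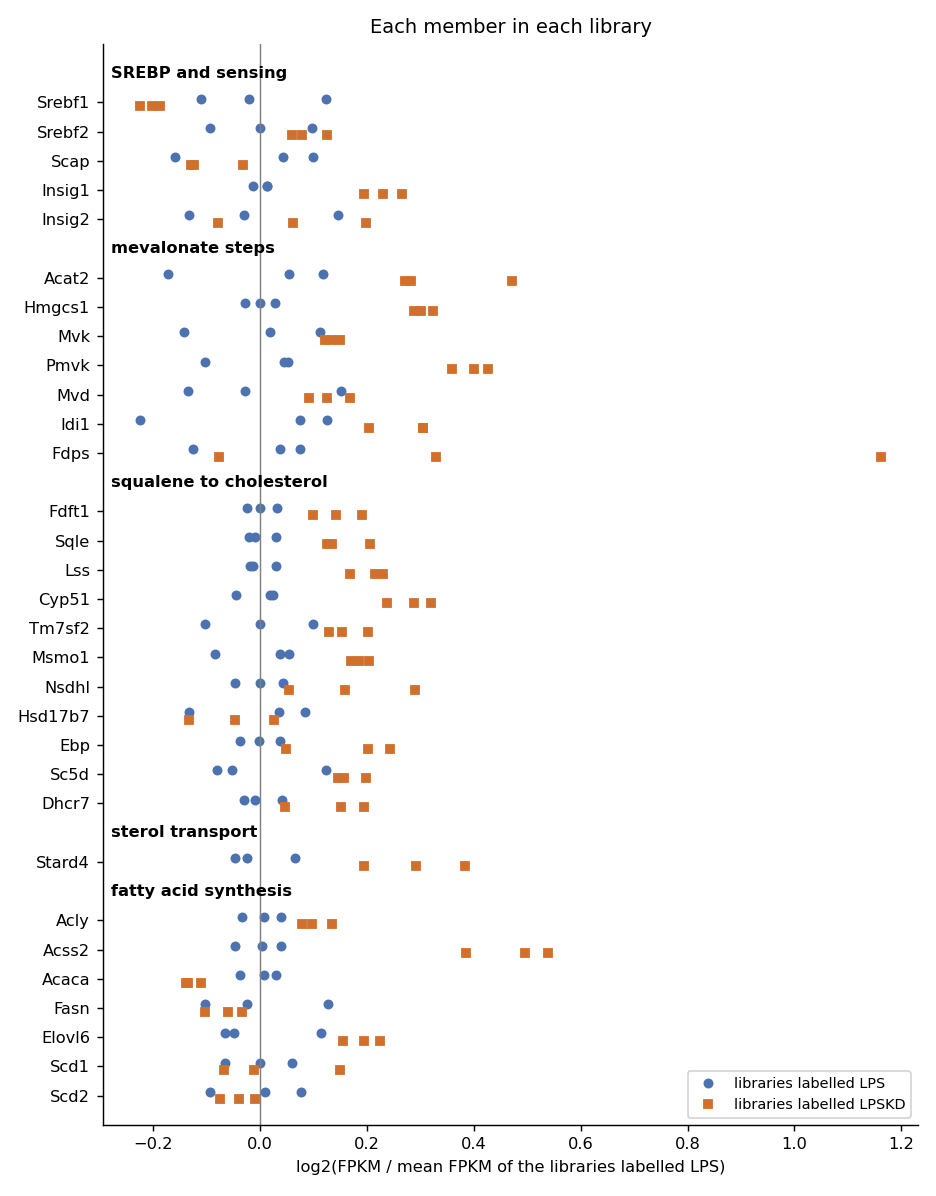
Each member (y axis, by role) in each library, as the log2 ratio of its FPKM to the mean of the libraries labelled LPS (x axis). Circles are libraries labelled LPS and squares those labelled LPSKD. The squares lie right of the circles in most rows from Acat2 to Stard4, and mix with them for Fasn, Scd1 and Scd2.

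The fatty acid genes showed no common direction. Of the 7, 1 rose and 0 fell (against 1.57% and 1.66% of all tested genes). Separated groups were seen upwards in 3 and downwards in 1 (against 10.6% and 13.2% of all tested genes). The median log2 fold change of the 7 was 0.02. Their summed level overlapped between the groups, at 1679 to 1867 FPKM and then 1715 to 1796 FPKM, and most of it was Scd2. The 1 that rose, Acss2, also had the highest fold change, so leaving it out had to give 0 calls and could not raise the median. The median of the other 6 was -0.01. The difference between this branch and the sterol enzymes was not tested.

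Acss2, which makes acetyl-CoA from acetate in the cytosol and nucleus, had the largest rise among the called members (ENSMUSG00000027605, chromosome 2, 155517948 to 155585724, plus strand). It measured 9.6, 9.83 and 9.26 FPKM and then 12.5, 13.5 and 13.9 FPKM. All 3 LPSKD values lay above the LPS values, by 38.3% on the fitted scale (log2 fold change 0.47 ± 0.08 SE, adjusted p = 0.0141). Other genes share 11% of its coding stretches. Its supply of acetyl-CoA serves both cholesterol and fatty acids.

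Acly, which makes acetyl-CoA from citrate, was far more abundant, at 211 to 222 FPKM and then 228 to 237 FPKM. The groups were separated but the step was small (log2 fold change 0.10, adjusted p = 0.188). Elovl6, which lengthens palmitate, ranged from 34.6 to 39.2 FPKM and then from 40.3 to 42.3 FPKM (log2 fold change 0.19, adjusted p = 0.142). A processed pseudogene shares 46% of the coding stretches of Elovl6.

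Acaca, the acetyl-CoA carboxylase at the committed step of fatty acid synthesis, had LPSKD values below the LPS values, at 38.3 to 40.1 FPKM and then 35.7 to 36.4 FPKM. The groups were separated, but the log2 fold change of -0.13 missed the threshold (adjusted p = 0.185). A processed pseudogene shares 75.7% of its coding stretches.

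Fasn, the fatty acid synthase itself, overlapped at 162 to 190 FPKM and then 162 to 170 FPKM (log2 fold change -0.06, 95% interval -0.19 to 0.07, adjusted p = 0.635). Scd1 overlapped at 88.8 to 96.8 FPKM and then 88.7 to 103 FPKM (log2 fold change 0.02, 95% interval -0.11 to 0.16, adjusted p = 0.885). Scd2 overlapped at 1129 to 1270 FPKM and then 1143 to 1196 FPKM (log2 fold change -0.04, 95% interval -0.14 to 0.07, adjusted p = 0.723). The intervals of all 3 leave out a rise as large as that fitted for Hmgcs1 or Cyp51. Scd1 and Scd2 share 37.3% and 32.3% of their coding stretches with other genes.

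The calls depended on how the spread was estimated. Hmgcs1 passed the test under all 18 alternatives tried. Pmvk and Cyp51 passed under 17 of the 18, missing it with eBayes without a trend, where only Hmgcs1 and Acss2 passed. With voom on the recovered fragments 12 members rose and 1, Srebf1, fell (adjusted p = 0.0466). With the replicate number as a block, 4 members passed.

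Calls also changed when 1 library was left out. Over all tested genes, 379 were called in the reported fit and 158 to 357 without 1 library. Without the third LPS library, the second LPSKD library or the third LPSKD library, 3 members passed in each case, namely Hmgcs1, Pmvk and Cyp51, and Insig1 and Acss2 lost their calls (highest adjusted p = 0.0702 for Insig1 and 0.0757 for Acss2). Lss was called in 1 and Stard4 in 1 of the 6 fits without a library (highest adjusted p = 0.123 for each). The direction of all 7 was the same in every alternative.

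**Figure D4:**
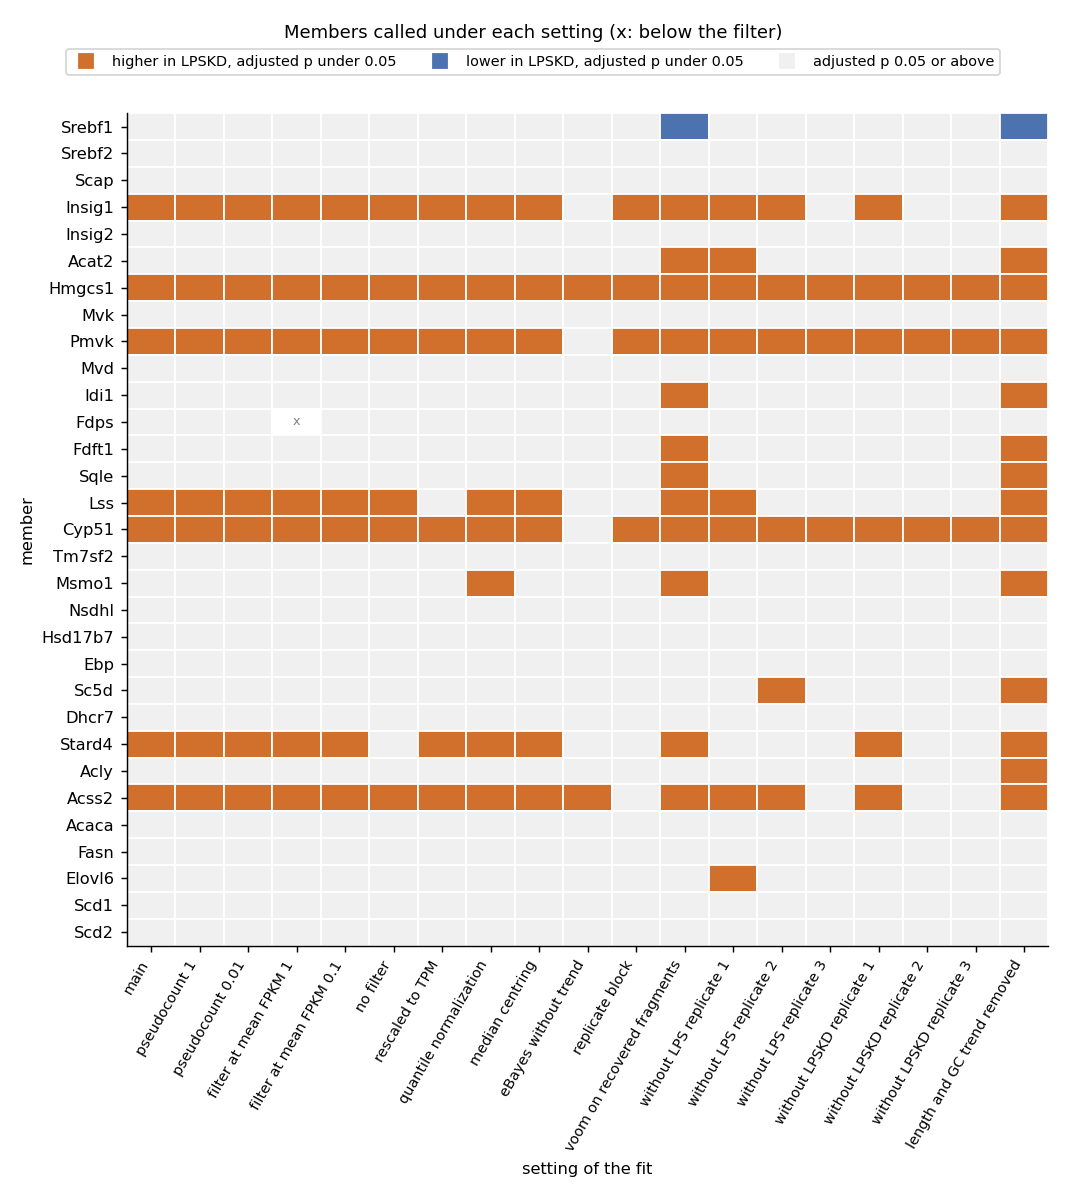
Members (y axis) called at an adjusted p under 0.05 under each setting of the fit (x axis), with the reported fit at the left. Orange marks a call higher in LPSKD, blue a call lower, light grey no call and x a member below the filter. Hmgcs1 is filled in every column, and the columns for voom and for removal of length and GC trends add the most calls, Srebf1 among them as lower.

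Genes around the pathway were also counted, from lists chosen by function. Of 10 genes of SREBP processing and turnover, 0 rose and 1 fell (against 1.57% and 1.66% of all tested genes). That gene was Rnf145, a sterol-responsive ubiquitin ligase, at 70.1, 70.3 and 66.9 FPKM and then 59.8, 58 and 59.2 FPKM (log2 fold change -0.23 ± 0.04 SE, adjusted p = 0.0231). No gene of this list was called with eBayes without a trend or with the replicate block. The same held when any library other than the first LPS one was left out. Of 12 genes of the isoprenoid branch, which draws on the mevalonate path for prenyl groups, ubiquinone and dolichol, 0 passed the test, with a median log2 fold change close to 0. Of 17 genes of cholesterol trafficking, storage and efflux, 14 were tested, 0 passed, and the median was 0.01.

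Of 31 further genes of lipogenesis, 29 were tested, with a median of -0.02. Among them 2 rose and 0 fell (against 1.57% and 1.66% of all tested genes). Me1, a malic enzyme that supplies NADPH, measured 84.8, 80 and 84.1 FPKM and then 97.5, 93.7 and 99.4 FPKM (log2 fold change 0.22 ± 0.04 SE, adjusted p = 0.0285). Lpin1, a phosphatidate phosphatase, measured 10.7, 10.5 and 9.63 FPKM and then 13.2, 14 and 14.2 FPKM (log2 fold change 0.42 ± 0.08 SE, adjusted p = 0.0249). Both sets of values were separated. Neither gene was called without the third LPS library or without any single LPSKD library. Of 20 genes of fatty acid oxidation, 17 were tested and 0 passed, with a median close to 0.

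Of 5 genes of oxysterol formation, 3 were tested and 0 passed, with a median of -0.42. Without the second LPS library, in which Cyp27a1 and Cyp7b1 were highest at 3.09 and 3.38 FPKM, the median was -0.09. Ch25h, whose oxysterol product holds SREBP back, lay under the filter, at 6, 5 and 9 fragments under the label LPS and 4, 0 and 4 under LPSKD. A difference at this depth could not be measured.

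Markers of cell identity were read beside these results. Of 16 tubular epithelial markers, 10 were tested. Krt8 and Krt18 were abundant, at 1158 FPKM or more in each library, and Slc34a1, Umod and Aqp2, which mark differentiated segments, were at 0 in every library. The summed level of the list overlapped, at 3820 to 3893 FPKM and then 3808 to 3860 FPKM. Yet 4 markers rose and 1 fell (against 1.57% and 1.66% of all tested genes). With eBayes without a trend 1 rose and 0 fell. Without the third LPS library or the third LPSKD library 2 rose and 0 fell. No marker of the list was called lower when any LPSKD library was left out. Pax2 rose from a mean of 34 to 51.7 FPKM and Aqp1 from 4.33 to 8.34 FPKM, with Pax8 and Cdh16 also higher and Krt18 lower. These markers separated the same libraries as the sterol genes did, and their part in the result was not tested.

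Of 6 macrophage and leukocyte markers, 5 were tested, 1 rose and 0 fell (against 1.57% and 1.66% of all tested genes). Csf1r rose from a mean of 24.4 to 33.3 FPKM. No marker of this list was called with eBayes without a trend, without the third LPS library or without any single LPSKD library. The summed level was 99.3 to 108 FPKM and then 119 to 120 FPKM, carried mostly by Cd14 and Csf1r. The median log2 fold change of the list was -0.18, with Cd68 at 12.6 to 15 FPKM and then 9.64 to 12.3 FPKM (adjusted p = 0.197, limma) and Adgre1 at -0.39 (adjusted p = 0.593, limma). The pan-leukocyte marker Ptprc lay between 0.372 and 1.08 FPKM. Of 4 hepatocyte markers 3 were tested and 0 passed. Their summed level was 178 to 404 FPKM and then 197 to 219 FPKM. All 4 were highest in the second LPS library. Alb was at 339 FPKM there and between 149 and 182 FPKM in the other 5. Ttr was at 63.5 FPKM there and between 27.3 and 35.4 FPKM elsewhere. Cyp8b1 stayed at or under 1.37 FPKM and Cyp7a1 at or under 0.373 FPKM. Without the second LPS library 6 members rose, Lss and Stard4 losing their calls and Sc5d gaining one. The median over all 31 members was then 0.17.

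Adipocyte markers were read because 1 line of the labels mentions adipose tissue. Of 7, 2 were tested and 0 passed. Fabp4 lay between 2.98 and 6.17 FPKM, Adipoq at or under 0.497 FPKM, and the summed level was 5.22 to 6.31 FPKM and then 4.79 to 7.79 FPKM. The 6 fibroblast markers, all tested, summed to 28.6 to 36.9 FPKM and then 19.2 to 36.7 FPKM with 0 called, and the 4 endothelial markers, 2 of them tested, to 2.31 to 4.29 FPKM and then 2.71 to 4.46 FPKM with 0 called.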

How the data were processed

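Poly(A) RNA of the 6 libraries was read as paired ends. The authors deposited FPKM values, 1 per gene and library, without pooling. Per the submitters' processing notes, the tools were HISAT2 2.0, StringTie 1.3.0 and Bowtie 0.12.2. They name the builds mm8 and GRCh38.p13 without a role. The gene identifiers are mouse Ensembl ones, and 22399 of 22442 matched GENCODE M21 (GRCm38), the source of the coordinates given here. Whether counting used strand is not given in the sources used here.

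Whole fragments were recovered by multiplying each FPKM by coding length, with 0 to 10 bases added, and library total. Within a tolerance of 0.01, 97.8% of the 16837 genes above 0 came out whole, and 376 more did at another length found by search. Of the 9629 genes with at least 100 fragments in every library, 98.1% did, against 1.17% with totals raised by 0.1%.

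Genes with a mean of at least 0.5 FPKM were fitted with limma 3.58.1 in R 4.3.3 (eBayes with a trend) on log2(FPKM + 0.1), without covariates, and p-values were Benjamini-Hochberg adjusted over all 11723 genes. A fold change on this scale understates that of low genes. The fit was tested on simulated data. Exact permutation tests were two-sided. Coding stretches of 31 bases were searched in the transcripts of all other genes, on either strand. Promoter windows came from RefSeq. Python 3.11.15 and matplotlib 3.10.9 were used for counting and drawing.

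The members, the other lists and the tests were chosen with earlier results of these data known. All members are named. Values per library are given for called members and for the 5 SREBP and sensing genes, and at most 3 called genes were named per surrounding list. Some genes of these pathways are not reported here. Alternatives were other pseudocounts, filters and scalings, eBayes without trend, the replicate block, voom on the fragments and the omission of each library. The removal of length and GC trends was chosen after seeing the data.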

Additional observations from a re-analysis of the deposited data

How the results depend on the processing

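The count of 7 members stayed within 1.5 times under the other pseudocounts, filters and scalings. It was 2 with eBayes without trend, 4 with the replicate block, 13 with voom on recovered fragments and 15 with length and GC trends removed, and 3 to 8 without 1 library. Over all genes, 379 were called in the reported fit, 140 without trend, 213 with the block, 598 with voom, 502 (287 higher) with length and GC trends removed and 158 to 357 without 1 library. The median log2 fold change of the members was 0.15 after rescaling to TPM, 0.15 after quantile normalization, 0.19 with length and GC trends removed and 0.14 to 0.17 without 1 library. Of 557 single-member values under the alternatives, 508 kept direction and side of the threshold, 26 lost the call, 18 gained one and 5 turned sign, all without a call. Without 1 library, Fasn ran from -0.11 to 0.00, Scd2 from -0.08 to 0.00, Scd1 from -0.04 to 0.07 and Insig2 from -0.00 to 0.14. The cause was not tested. Same-numbered libraries did not deviate together over all tested genes (correlations -0.016, -0.00388 and -0.0426). A pairing that touches only some genes could stay hidden in these correlations. The block lost the calls of Lss, Stard4 and Acss2 (adjusted p = 0.0613, 0.0603 and 0.0542, limma). Among the genes named from the pathway, depth limits Fdps and Ch25h, and also Cyp27a1 (39 to 123 fragments per library) and Cyp7b1 (46 to 128).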

Other observations

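Ratios of 2 members within a library do not change with the scaling of that library. The pairs below were chosen after their values were seen. The ratio of Srebf2 to Srebf1 was 3.25, 3.34 and 3.34 under the label LPS and 4.07, 3.95 and 4.09 under LPSKD. The ratio of Hmgcs1 to Fasn, an enzyme of each branch, was 1.05, 1.26 and 1.21 and then 1.49, 1.56 and 1.46. The ratio of Acss2 to Acly, the alternative sources of acetyl-CoA, was 0.0433, 0.0466 and 0.0427 and then 0.0548, 0.0584 and 0.0586. In these 3 pairs the groups did not overlap (exact two-sided permutation p = 0.1 each, the smallest that 3 against 3 can give). Since Hmgcs1, Acss2 and Srebf1 were already separated on their own, the ratios restate those values and add no separate support. The ratios of Insig1 to Insig2 (exact p = 0.3) and of Scd2 to Scd1 (exact p = 0.4) overlapped.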
